A study of Rattus norvegicus with 20 samples.

Results

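The 8 genes described here encode the subunits of GIRK channels (Kcnj3, Kcnj5, Kcnj6 and Kcnj9) and of ATP-sensitive potassium channels (the pores Kcnj8 and Kcnj11 and the sulfonylurea receptors Abcc8 and Abcc9). They were chosen by gene symbol from the annotation of the arrays, with earlier results of these data known, in which the level of Kcnj3 in rats with spasms against rats without had been singled out. They made up 8 of the 13292 genes tested and were read by 13 of 44254 spots. The tissue was the hypothalamic arcuate nucleus of male Sprague-Dawley rat pups, taken on postnatal day 15, with 4 rats in each of 5 groups. BYS rats were primed with betamethasone, a synthetic glucocorticoid given to the mother, then had spasms triggered by N-methyl-D-aspartic acid (NMDA) and were given saline. BYA rats had the same priming and spasms but were given ACTH, the pituitary hormone used against infantile spasms. BYP rats had the same priming and spasms but were given PMX53, a peptide antagonist of the complement receptor C5ar1. BNS rats were primed with betamethasone and given saline without NMDA or spasms. SNS rats, with neither betamethasone nor spasms, had only saline, first through the mother and again as pups. Mothers were injected on gestational day 15 (0.4 mg/kg betamethasone per dose in the 4 primed groups), and NMDA was given on postnatal days 12, 13 and 15. Nothing in the labels or the methods says which pups shared a litter, so p-values measure the spread between these 20 samples.

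GIRK channels are tetramers of inward rectifier subunits that open when the beta-gamma part of a Gi or Go protein binds to them, after receptors such as those for GABA (type B), opioids or somatostatin have been activated. Their current holds a neuron away from its firing threshold. ATP-sensitive channels are built of a pore subunit and a sulfonylurea receptor. They close when the ratio of ATP to ADP rises, and so tie the firing of glucose-sensing neurons of the arcuate nucleus to their energy state. The pair of Kcnj11 and Abcc8 is best known from neurons and pancreatic beta cells, and the pair of Kcnj8 and Abcc9 from pericytes and vascular smooth muscle.

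The 20 samples lay on 11 arrays of 6 slides. Each array carried 1 of these samples in Cy3 and 1 in Cy5, except those of SNS replicates 1 and 2, which carried 1 each. BYS, BYA, BYP and BNS each had a slide of their own, and SNS alone lay on slides 1 and 2. Slide and group thus cannot be told apart in any comparison. Samples had a value at 34107 to 44249 spots. SNS replicate 2 is labelled Cy5 but had 44159 spots with a value, against 34107 to 39968 in the other Cy5 samples and 42678 to 44249 in the Cy3 samples, which puts its dye label in doubt. The 11 arcuate markers measured lay between percentiles 18.2 (Prlr) and 99.4 (Npy) of all genes by signal, with Agrp, Pomc and Cartpt also above 93. In BYS against BNS, 1 of the 11 markers passed, beside 15.5% of all genes: Agrp, with a log2 difference of -0.89. The median difference of the 11 was 0.17, beside 0.18 over all genes. Levels below are log2 values after subtraction of each sample's median, so they are relative, and they cannot be set against each other between genes. Differences are given with the standard error of the fit, and the adjusted p is always that of limma over all genes tested.

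Across the 5 groups the members differed in which group stood apart. Kcnj3 stood apart in BNS, Kcnj8 was lowest in BYS, the 1 spot of Abcc9 used was high in BYS and low in BYA, and the ranges of the other 5 genes largely overlapped. When the groups of each gene were put in the order of their means, the ranges of neighbouring groups overlapped in 28 of 32 pairs. The same share over all genes was not computed, so this count is not read as a result about the members. The 4 pairs that did not overlap were BYS above BNS for Kcnj3, SNS above BYP for Kcnj8, and BYS above BYP and BNS above BYA for Abcc9. That of Kcnj3 is the comparison that had led to the choice. Since the samples were bulk tissue, fewer cells of a type and less RNA per cell cannot be told apart.

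**Figure D1:**
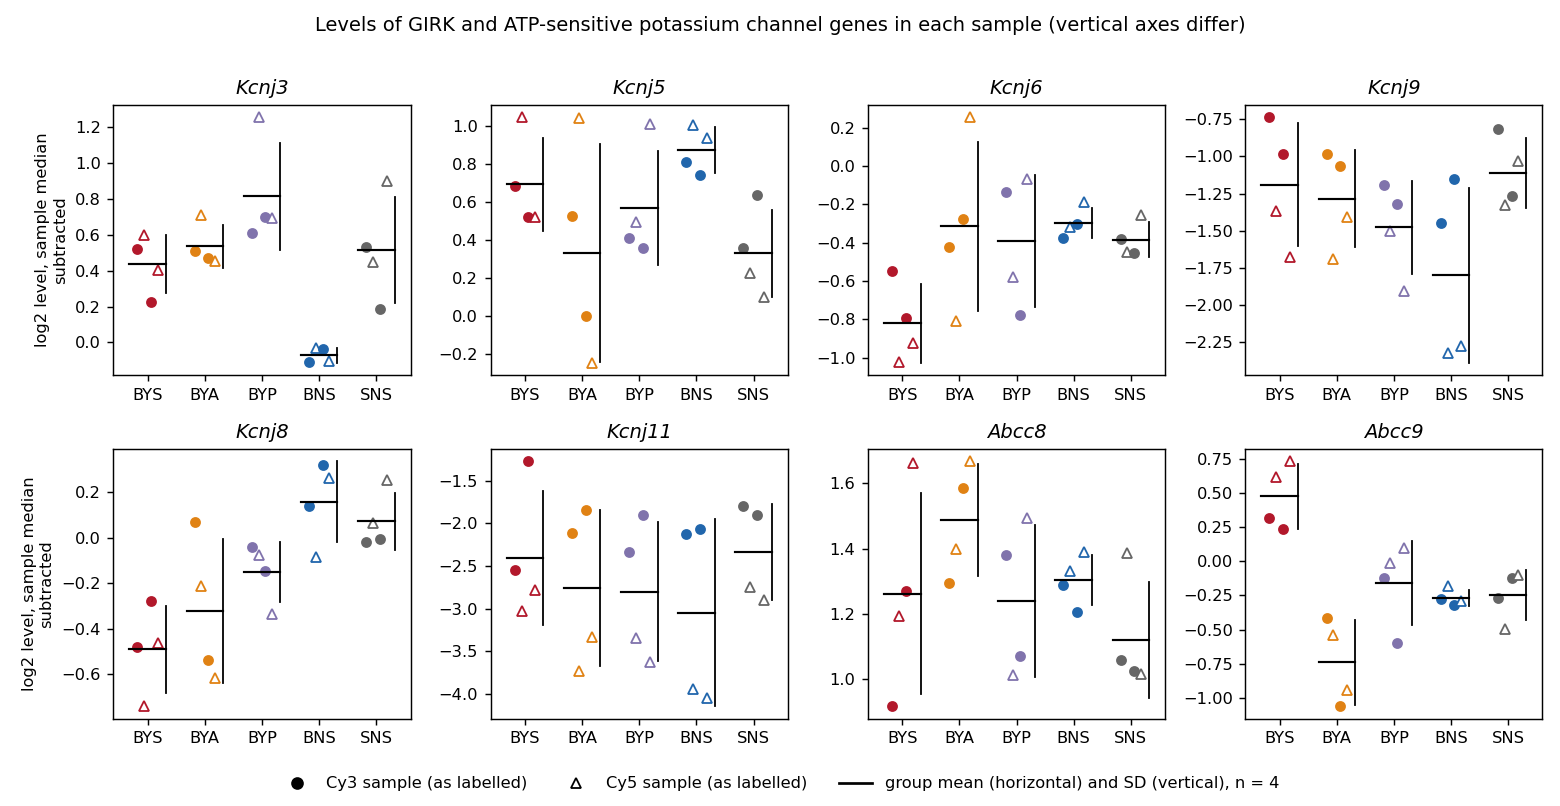
The 8 panels plot the level of each gene (vertical axis, log2 with the sample median subtracted) in each of the 20 samples, by group (horizontal axis), with the group mean and SD (n = 4). The 4 BNS samples of Kcnj3 lie between -0.11 and -0.03, below all other samples, and the 4 BYS samples of Abcc9 lie between 0.23 and 0.73, above all other samples.

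Kcnj3 encodes GIRK1, the subunit that pairs with the other GIRK subunits and cannot form a working channel at the surface alone. Its level was 0.52, 0.60, 0.22 and 0.40 in BYS rats, against -0.11, -0.03, -0.04 and -0.11 in BNS rats. It was 0.51, 0.71, 0.47 and 0.45 in BYA rats and 0.61, 1.25, 0.70 and 0.69 in BYP rats. In SNS rats it was 0.53, 0.45, 0.19 and 0.90. No sample of another group reached down to the BNS samples, which lay close together. This was the gene whose values in BYS and BNS had led to the choice, and its difference of 0.51 ± 0.20 there (95% interval 0.10 to 0.92) is a description only. Against BNS it differed by 0.61 ± 0.20 in BYA (adjusted p = 0.269) and by 0.88 ± 0.20 in BYP (adjusted p = 0.201), and neither passed. BNS in turn differed from SNS by -0.58 ± 0.19 (adjusted p = 0.240). These 4 differences share the BNS samples and so do not stand as separate observations.

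Kcnj5 encodes GIRK4, known best as the partner of GIRK1 in the heart and present in parts of the hypothalamus. It averaged 0.69 ± 0.25 in BYS, 0.33 ± 0.58 in BYA, 0.57 ± 0.30 in BYP, 0.88 ± 0.12 in BNS and 0.33 ± 0.23 in SNS (SD, n = 4 each). The BYA samples fell apart by array, with a mean of 0.79 on the array of replicates 1 and 2 and of -0.12 on that of replicates 3 and 4. BYS differed from BNS by -0.18 ± 0.28 (95% interval -0.77 to 0.40). BNS was above SNS in all samples, by 0.55 ± 0.27, without passing (adjusted p = 0.340).

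Kcnj6 encodes GIRK2, the main subunit of neuronal GIRK channels. It was read at -0.55, -1.02, -0.79 and -0.92 in BYS rats and at -0.37, -0.32, -0.30 and -0.19 in BNS rats. The BYS samples were the lower ones without overlap, yet the difference of -0.53 ± 0.27 did not pass (adjusted p = 0.170). The level averaged -0.31 ± 0.44 in BYA, -0.39 ± 0.34 in BYP and -0.38 ± 0.09 in SNS (SD, n = 4 each), close to that of BNS. The BYA samples fell apart by array, with a mean of -0.62 for replicates 1 and 2 and of -0.01 for replicates 3 and 4. BYA and BYP lay above BYS by 0.51 ± 0.27 and 0.43 ± 0.27, with overlapping ranges and adjusted p = 0.240 and 0.284.

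Kcnj9 encodes GIRK3, a subunit that lowers the number of channels at the surface by sending them to lysosomes. It was read at -0.74, -1.37, -0.99 and -1.67 in BYS rats, against -1.44, -2.32, -1.15 and -2.27 in BNS rats. The lower pair of each group was its Cy5 pair, and within a dye the BYS samples were above the BNS samples, with Cy3 means of -0.86 in BYS and -1.30 in BNS and Cy5 means of -1.52 in BYS and -2.30 in BNS. The difference of 0.61 ± 0.24 did not pass (adjusted p = 0.0865). All genes were also cut into deciles by signal, and the decile of Kcnj9 had a median difference of 0.24 in that comparison. Its level averaged -1.29 ± 0.33 in BYA, -1.48 ± 0.31 in BYP and -1.11 ± 0.23 in SNS (SD, n = 4 each).

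In BYS against BNS, 2 of the 8 members passed the test, 1 in each direction, while 15.5% of all genes passed (8.88% higher and 6.62% lower in BYS). With so high a share over all genes, 2 of 8 is not read as a result about the set. The median difference of the members was 0.23, beside 0.18 over all genes.

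Kcnj8 encodes Kir6.1, the pore subunit of the ATP-sensitive channels of vessels. Its level was -0.48, -0.74, -0.28 and -0.46 in BYS rats, against 0.14, -0.08, 0.32 and 0.26 in BNS rats. All BYS samples were below all BNS samples. Kcnj8 fell by 0.65 on the log2 scale in BYS, to a ratio of 0.637 (-0.65 ± 0.17, adjusted p = 0.0197). The difference was -0.61 within the Cy3 samples and -0.69 within the Cy5 samples. BYS was also below SNS, whose samples were read at -0.02, 0.07, -0.01 and 0.25 (-0.55 ± 0.17, adjusted p = 0.0485). The ACTH and PMX53 groups lay between: BYA averaged -0.32 ± 0.32 and BYP -0.15 ± 0.13 (SD, n = 4 each). Their differences from BNS were -0.48 ± 0.17 in BYA (adjusted p = 0.339) and -0.31 ± 0.17 in BYP (adjusted p above 0.99). In BYA the array of replicates 1 and 2 had a mean of -0.07 and that of replicates 3 and 4 a mean of -0.58.

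Kcnj11 encodes Kir6.2, the pore subunit of the ATP-sensitive channels of neurons. It was the dimmest member, at percentile 8.34 of all genes by signal, and its level followed the dye: Cy5 samples were lower than Cy3 samples by 1.36 on average. It averaged -2.40 ± 0.78 in BYS, -2.76 ± 0.92 in BYA, -2.80 ± 0.82 in BYP, -3.05 ± 1.10 in BNS and -2.34 ± 0.57 in SNS (SD, n = 4 each). The difference of BYS from BNS, 0.64 ± 0.31, did not pass (adjusted p = 0.155). The genes of its decile had a median difference of 0.61, about the same size.

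Abcc9 encodes SUR2, the sulfonylurea receptor that pairs with Kir6.1 in vessels. Its level was 0.32, 0.61, 0.23 and 0.73 in BYS rats, against -0.28, -0.18, -0.32 and -0.29 in BNS rats. It was -0.27, -0.49, -0.13 and -0.10 in SNS rats. Every BYS sample was above every sample of the other groups. Abcc9 was higher in BYS than in BNS by 0.74 ± 0.21, a ratio of 1.67 (adjusted p = 0.0240), and higher in BYS than in SNS by 0.75 ± 0.20 (adjusted p = 0.0275). Both calls come from 1 of its 3 spots. With all 3 averaged, Abcc9 differed by -0.32 in BYS against BNS (adjusted p = 0.697) and by 0.11 in BYS against SNS (adjusted p = 0.944). In BYS against SNS the called members were again Kcnj8 and Abcc9, 2 of 8 beside 7.58% of all genes, and both comparisons share the BYS samples. Without SNS replicate 2, the sample of doubtful dye, these differences from SNS were 0.61 for Abcc9 and -0.54 for Kcnj8 (adjusted p = 0.0341 and 0.0422). Kcnj8 did not pass in BYS against SNS without BYS replicate 1, 2 or 4 or SNS replicate 1 or 4 (adjusted p = 0.0596 to 0.105), nor did Abcc9 without BYS replicate 2 or 4 or SNS replicate 1 (adjusted p = 0.0521 to 0.0558). Within a dye, BYS was above BNS by 0.58 in Cy3 and by 0.91 in Cy5.

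Abcc8 encodes SUR1, the sulfonylurea receptor of neurons and beta cells. It varied little between groups, with means of 1.26 ± 0.31 in BYS, 1.49 ± 0.17 in BYA, 1.24 ± 0.23 in BYP, 1.30 ± 0.08 in BNS and 1.12 ± 0.18 in SNS (SD, n = 4 each). BYS and BNS differed by -0.04 ± 0.19, with a 95% interval of -0.43 to 0.35. Its other differences were between -0.25 and 0.23, and all adjusted p were above 0.45.

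Kcnj8 and Abcc9 are neighbours on chromosome 4 with 0 protein-coding genes between them, and Kcnj11 and Abcc8 on chromosome 1 are neighbours in the same way, by the RefSeq gene table. In BYS against BNS, Kcnj8 was lower and Abcc9 higher in the spots used. With all spots averaged the differences were -0.65 for Kcnj8 and -0.32 for Abcc9, and that of Abcc9 did not pass (adjusted p = 0.697). The 250 bases before the annotated start of the called pair are shown since both genes were called, from RefSeq (GRCr8), both read from the minus strand. They lie at chr4:177246549-177246798 for Kcnj8 and at chr4:177386349-177386598 for Abcc9.
Kcnj8: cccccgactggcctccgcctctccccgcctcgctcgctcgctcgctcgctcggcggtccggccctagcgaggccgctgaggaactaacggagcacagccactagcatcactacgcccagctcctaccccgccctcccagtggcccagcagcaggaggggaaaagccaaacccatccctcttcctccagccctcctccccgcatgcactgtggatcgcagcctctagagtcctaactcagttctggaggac
Abcc9: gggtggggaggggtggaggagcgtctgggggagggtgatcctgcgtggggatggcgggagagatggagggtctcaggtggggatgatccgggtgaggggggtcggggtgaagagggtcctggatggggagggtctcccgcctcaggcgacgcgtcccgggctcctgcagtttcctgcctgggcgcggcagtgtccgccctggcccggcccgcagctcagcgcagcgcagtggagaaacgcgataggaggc
Their share of G and C was 66.8% for Kcnj8 and 71.2% for Abcc9, beside a median of 51.2% over the 33469 promoter windows of that table. Windows were found for 5 of the 8 genes (Kcnj5, Kcnj6, Kcnj9, Kcnj8 and Abcc9). They were searched on both strands for the half-site of the glucocorticoid receptor (AGAACA, present in 17.5% of all windows of this length), the cyclic AMP response element (TGACGTCA, 1.59%) and the AP-1 site (TGANTCA, 6.34%) and no pattern contains another. None of the 5 windows held any of the 3, so no letters are in capitals. This says only that these letters are not in these windows.

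**Figure D2:**
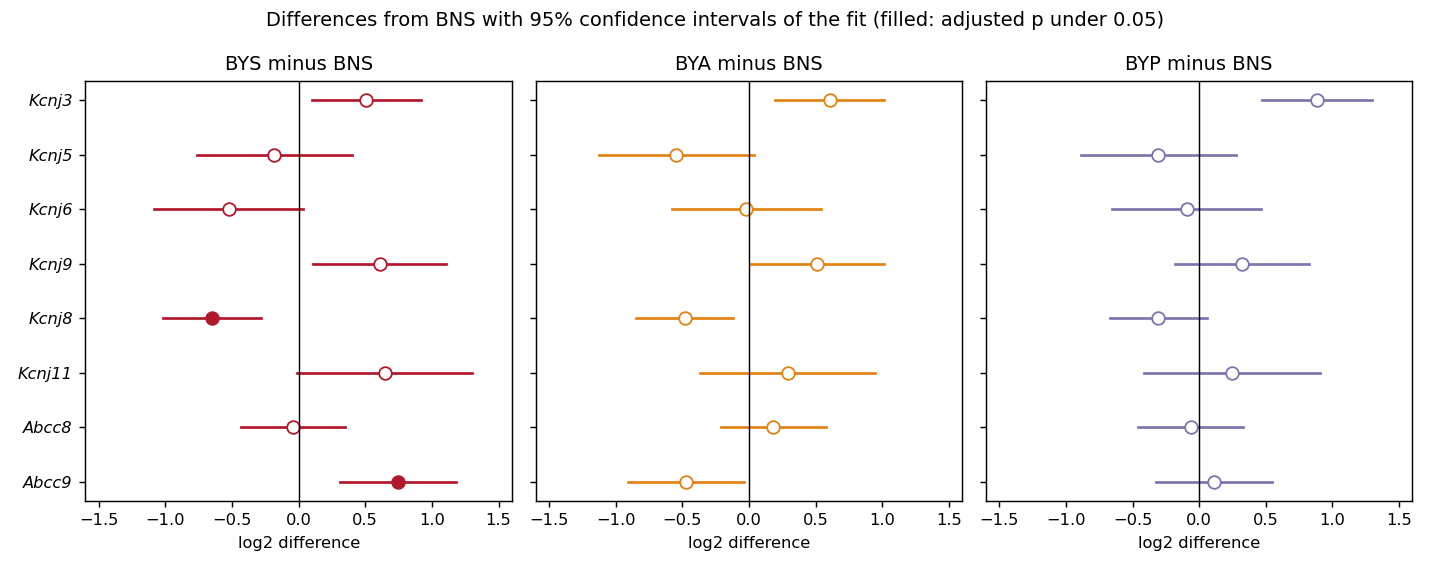
For each gene (vertical axis) the points give the log2 difference (horizontal axis) of BYS, BYA or BYP from BNS, and the bars its 95% confidence interval in the limma fit. Filled points passed at an adjusted p under 0.05: Kcnj8 at -0.65 and Abcc9 at 0.74, both in BYS.

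None of the 8 members passed in BYA against BNS or in BYP against BNS, where 0.241% and 0.0301% of all genes passed. An unadjusted p under 0.05 in limma was held by 4 members in BYA and 1 in BYP, beside 1297 and 726 of the 13292 genes. The members were Kcnj3, Kcnj9, Kcnj8 and Abcc9 in BYA and Kcnj3 in BYP. The 3 comparisons with BNS share the 4 BNS samples. In BNS against SNS, which differ in the prenatal priming and also lay on different slides, 0 of 8 members passed, beside 0.00752% of all genes. An unadjusted p under 0.05 in limma was held by 3 members (Kcnj3, Kcnj9 and Kcnj11, all lower in BNS), beside 1976 of the 13292 genes. Their differences were -0.58, -0.69 and -0.72, and their deciles of signal had median differences of 0.02, -0.15 and -0.60. SNS also holds the sample of doubtful dye. By the methods' t-test at their p-value threshold, without the fold limit set for each gene that the methods add to it, 2 members passed in each of these 3 comparisons, and 0 did after Benjamini-Hochberg adjustment.

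The treated rats were then set against the saline-treated rats with spasms. Abcc9 was read at -0.41, -0.54, -1.06 and -0.94 in BYA rats, against 0.32, 0.61, 0.23 and 0.73 in BYS rats. All 4 BYA samples were below all BYS and all BNS samples. The difference from BYS was -1.21 ± 0.21, a ratio of 0.431 (adjusted p = 0.00121). With all spots averaged it was -0.64 and did not pass (adjusted p = 0.487), nor did it pass in Cy5 samples alone (-1.41, adjusted p = 0.0534) or by the methods' t-test after adjustment (adjusted p = 0.103). It was the 1 member of 8 that passed in BYA against BYS, where 8.67% of all genes passed. Its level in BYP rats was -0.12, -0.02, -0.60 and 0.10, again below all BYS samples, but the difference of -0.63 ± 0.21 did not pass (adjusted p = 0.0583), and it was 0.12 with all spots averaged. So 0 of 8 members passed in BYP against BYS, beside 9.68% of all genes. Abcc9 was the 1 member at an unadjusted p under 0.05 in limma, beside 3963 of the 13292 genes. By the methods' t-test before adjustment 2 members passed, which is not read as a result about the members.

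ACTH and PMX53 were also compared with each other. BYP was above BYA for Abcc9 by 0.58 ± 0.21 (adjusted p = 0.934) and the ranges overlapped. None of the 8 members passed, beside 0.0301% of all genes. Abcc9 was the 1 member with an unadjusted p under 0.05 in limma, beside 614 of the 13292 genes, while the methods' t-test also gave 1. For the remaining genes the differences between BYP and BYA lay between -0.25 and 0.28. For Kcnj8, BYA was above BYS by 0.17 ± 0.17 (95% interval -0.20 to 0.53) and BYP was above BYS by 0.34 ± 0.17 (95% interval -0.02 to 0.71). Both intervals hold 0, and that of BYP also holds a shift as large as the difference of 0.65 between BYS and BNS.

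How many spots read a gene, and how bright they were, differed among the members. Kcnj6, Kcnj8, Kcnj11 and Abcc8 had 1 spot each. Kcnj3 and Kcnj5 had 2, of which only the brighter had a value in every sample and was used. The dimmer Kcnj3 spot had a value in 19 samples and gave BYS minus BNS as 0.68, BYA minus BNS as 0.15 and BYP minus BNS as -0.04, beside 0.51, 0.61 and 0.88 from the bright spot. Only the first of these was of similar size in both spots. In the dimmer Kcnj5 spot, read in 15 samples, BYS minus BNS was -0.47 over the values present. That spot had no value in the Cy5 samples of BNS but had values in those of BYS. Its Cy5 samples differed from its Cy3 samples by -1.53 on average, so the -0.47 mixes dye with group. Among Cy3 samples every BYS value of that spot was above every BNS value, opposite in sign.

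Abcc9 had 3 spots. Its results come from the brightest, the only one with a value in all samples. The second had a value in 18 samples, at percentile 22.3 of all spots, and gave BYS minus BNS as -0.59, opposite in sign. That spot was lower in Cy5 than in Cy3 samples by 1.33 on average, and its BNS mean lacks 1 of the Cy5 samples. Among Cy3 samples it was at -1.41 and -1.66 in BYS rats, against -1.50 and -2.10 in BNS rats. Among Cy5 samples it was at -2.93 and -4.10 in BYS rats, against -2.18 in the 1 BNS rat with a value, so that the order of the groups differed between the dyes. The third had a value in 12 samples, none of them a Cy5 sample of BNS or BYA. Among Cy3 samples it was at -1.68 and -2.02 in BYS rats, against -2.56 and -2.28 in BNS rats. Within Cy3, BYS was thus above BNS on average in each spot. Over all samples the sign of Abcc9 in BYS against BNS depended on the spots taken, and the dimmer spots lack Cy5 values in BNS. The part of these missing values in the sign was not tested. For BYA minus BYS the second spot gave -0.59, the same sign as the bright spot. The third gave 0.16 over the values present, and was at -2.41 and -2.28 in the Cy3 samples of BYA.

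Kcnj9 had 2 complete spots, which were averaged. They gave BYS minus BNS as 0.83 and 0.39, BYA minus BYS as -0.50 and 0.31, and correlated at r = 0.385 over the 20 samples. Both were lower in Cy5 than in Cy3, by 0.53 and 0.57.

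**Figure D3:**
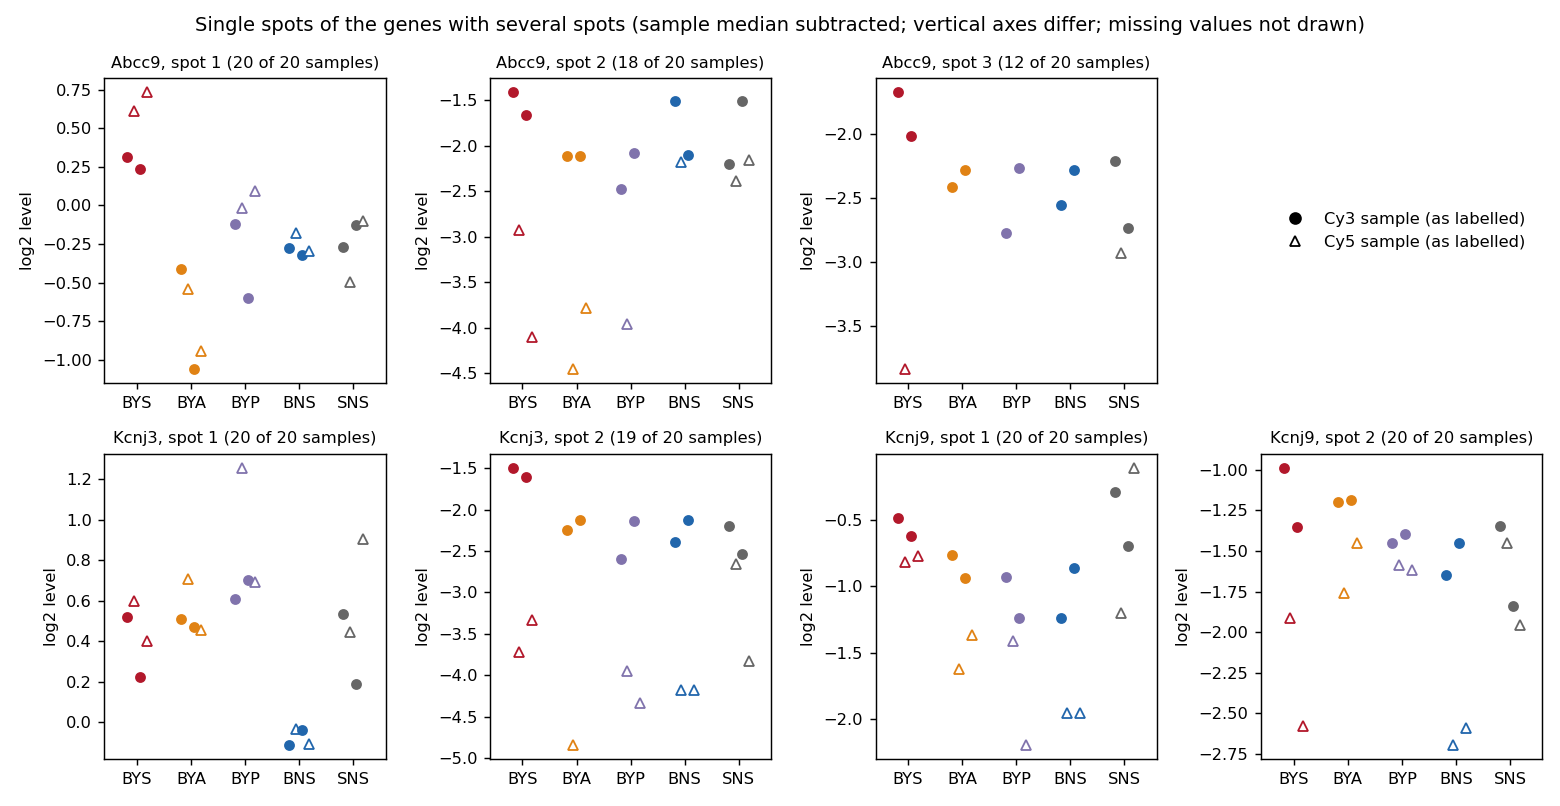
Each panel plots 1 spot of Abcc9, Kcnj3 or Kcnj9 (vertical axis, log2 level with the sample median subtracted) in each sample that had a value, by group (horizontal axis). The first Abcc9 spot separates BYS from BNS, at 0.23 to 0.73 against -0.32 to -0.18, while in the second Kcnj3 spot the Cy5 samples lie below the Cy3 samples of their group.

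Since Kcnj8 and Abcc9 are known from vessel walls, the markers of pericytes and smooth muscle were read beside them. Counts of markers stand beside the shares of all genes in BYS against BNS, 8.88% higher and 6.62% lower. All 10 markers of pericytes and smooth muscle were measured. In BYS against BNS, 2 rose (Notch3, a receptor of mural cells, by 0.74 ± 0.16, and Myh11, smooth muscle myosin, by 0.54 ± 0.16) and 2 fell (Tagln, an actin-binding protein, by 1.33 ± 0.44, and Rgs5, a pericyte regulator of G protein signalling, by 0.54 ± 0.18, adjusted p = 0.0477 and 0.0495). Their summed level, on the linear scale relative to the sample median, was 11.7 to 13.7 in BYS rats, against 14.3 to 16.7 in BNS rats and 13.9 to 18.7 in SNS rats. The sum was 12.9 to 14.7 in BYA rats and 11.7 to 15.2 in BYP rats. It weighs the brightest markers most, and although it did not overlap between BYS and BNS, the mean log2 level of the 10 markers did, at -0.47 to -0.16 in BYS rats against -0.42 to -0.09 in BNS rats. In BYS against SNS, Rgs5 and Vtn fell by 0.65 ± 0.17 and by 0.95 ± 0.25. In BYA against BYS and in BYP against BYS, Myh11 was lower by 0.63 ± 0.16 and 0.69 ± 0.16. Dim genes were lower in these comparisons too, with median differences of -0.54 and -0.60 in the dimmest decile. Markers of other cells moved as well in BYS against BNS. Of 6 oligodendrocyte markers, 2 rose, Mobp by 2.50 ± 0.65 and Mog by 2.45 ± 0.63, with a median difference of 1.37 over the list and mean log2 levels of 0.44 to 1.55 in BYS rats against -0.59 to 0.45 in BNS rats. Mag and Cldn11 differed by 1.22 and 1.53, and Mbp and Cnp by -0.44 and -0.03, without passing. The summed level of this list overlapped, at 10.2 to 23.1 in BYS rats against 10.5 to 13.4 in BNS rats. Of 6 endothelial markers, Flt1 rose by 0.56 ± 0.16 and Kdr fell by 0.92 ± 0.25. Of 9 markers of neighbouring hypothalamic nuclei, Nr5a1 rose by 0.96 ± 0.28 and Hcrt by 0.79 ± 0.23. In the same list Fezf1 and Avp went the other way, at -1.90 and -1.68, without passing (adjusted p = 0.0642 and 0.113). The remaining markers of that list were higher without passing. Of 5 markers of ependyma and tanycytes, Dio2 rose by 0.95 ± 0.26. None of the 9 neuronal, 7 astrocyte, 7 microglial, 3 pituitary, 4 blood or 3 thalamic, cortical and hippocampal markers passed. Of the markers that rose, Myh11, Flt1, Nr5a1 and Dio2 were dim, in a decile of signal whose median difference was 0.38. Notch3 and Hcrt lay in the next decile, with a median difference of 0.24. In BYS against SNS, the astrocyte marker Aqp4 and the endothelial marker Pecam1 rose by 0.70 ± 0.21 and 0.57 ± 0.17. The part of any of these cells in the results of Kcnj8 and Abcc9 was not tested.

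**Figure D4:**
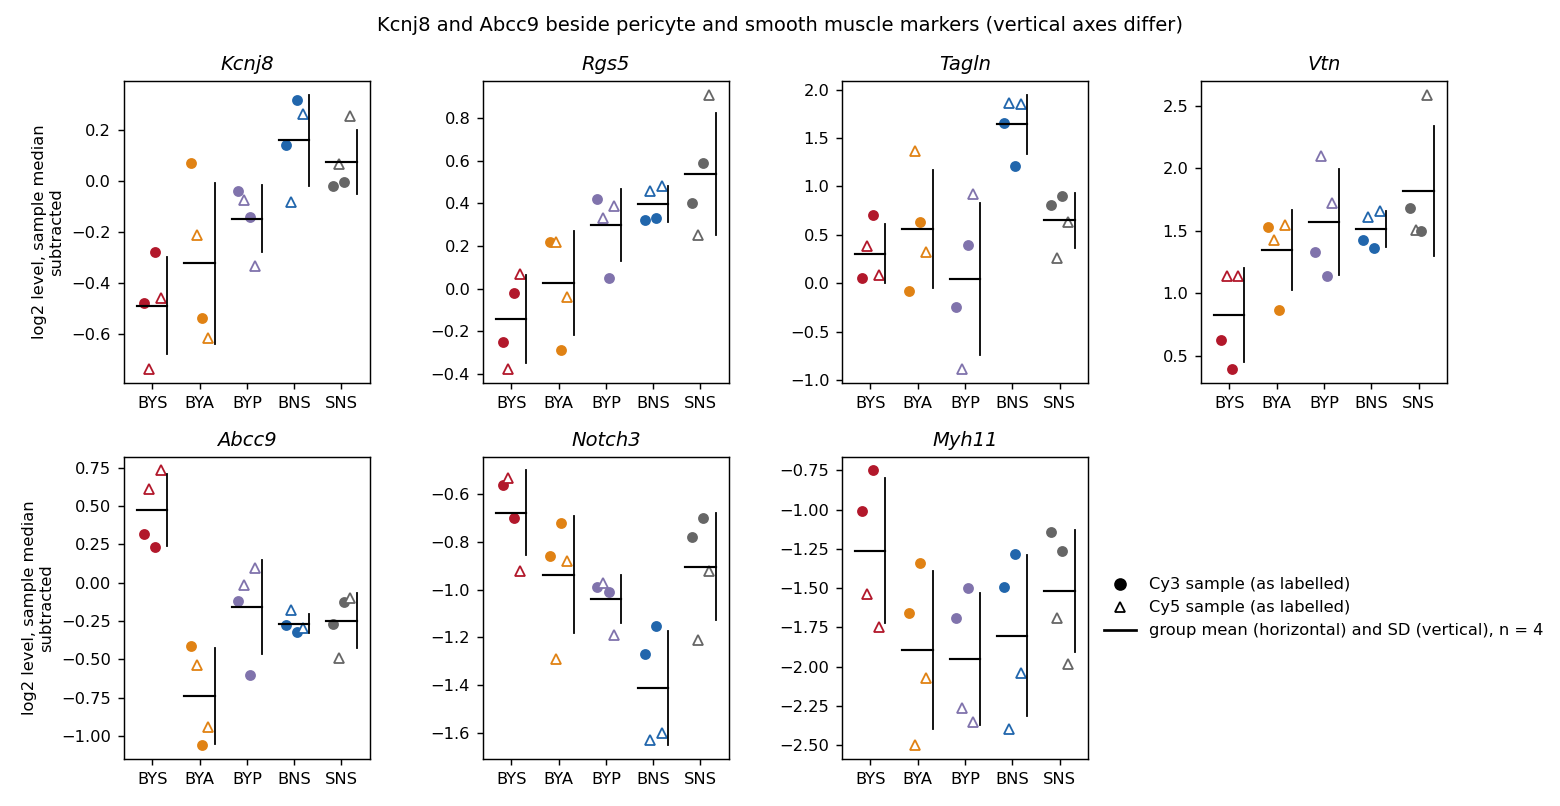
The panels plot Kcnj8 and Abcc9 beside 5 markers of pericytes and smooth muscle (vertical axis, log2 level with the sample median subtracted) by group (horizontal axis), with group means and SD (n = 4). Rgs5 averaged -0.15 in BYS against 0.40 in BNS, and Notch3 averaged -0.68 in BYS against -1.41 in BNS.

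The surroundings of the channels were read from lists of related genes, each given as counts beside the shares of all genes above. Of 6 other inward rectifier genes measured, 2 rose and 0 fell in BYS against BNS: Kcnj12 (Kir2.2) by 1.02 ± 0.22 and Kcnj4 (Kir2.3) by 0.83 ± 0.25. Both are strong rectifiers that set the resting potential. They were dim, at percentiles 27.1 and 24.2, in a decile of signal whose median difference was 0.38. Kcnj12 was lower in BYA than in BYS by 0.89 ± 0.22 and lower in BYP than in BYS by 0.75 ± 0.22 (adjusted p = 0.0174 and 0.0391). Dim genes were lower there too, with median differences of -0.54 and -0.60 in the dimmest decile and -0.18 and -0.19 in that of Kcnj9.

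Of the 27 receptors that couple to Gi or Go proteins, 2 rose and 1 fell in BYS against BNS. Sstr2, a somatostatin receptor, rose by 0.77 ± 0.16 and Oprd1, the delta opioid receptor, rose by 0.76 ± 0.20. Sstr1, another somatostatin receptor, fell by 0.70 ± 0.18. Oprd1 was the 1 receptor that passed in BYA against BNS, at -0.72, -1.06, -0.73 and -0.97 in BYA rats against -1.80, -2.63, -1.80 and -2.68 in BNS rats (1.36 ± 0.20, adjusted p = 0.00658). The ranges did not overlap. Sstr2 was also higher in BYS than in SNS, by 0.54 ± 0.15.

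Of 18 G protein subunits, 1 rose in BYS against BNS and 0 fell: Gng11, a gamma subunit, by 0.82 ± 0.25, dim and in a decile with a median difference of 0.54. Gnai1 rose by 0.77 ± 0.20 in BYS against SNS, Gng5 was higher in BYA than in BYS by 0.47 ± 0.14, and Gng8 was lower in BYP than in BYS by 0.52 ± 0.15. Of 11 regulators of GIRK channels, 2 rose and 0 fell in BYS against BNS. They were Rgs8 and Rgs2, which speed the return of G proteins to rest, by 0.60 ± 0.15 and 0.51 ± 0.16. Rgs2 was read at 2.68, 2.90, 2.61 and 2.65 in BYS rats, against 2.11, 2.25, 1.96 and 2.46 in BNS rats, with no overlap.

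Of 17 genes of glucose and energy sensing, 2 rose and 0 fell in BYS against BNS. Ucp2, a mitochondrial carrier that lowers ATP production, rose by 0.65 ± 0.19, and its level was 0.59, 1.02, 0.72 and 0.67 in BYS rats, against 0.09, -0.13, 0.16 and 0.29 in BNS rats. Slc2a4, the insulin-dependent glucose transporter GLUT4, rose by 0.76 ± 0.23 but was dim, in a decile with a median difference of 0.54. Slc2a1, the glucose transporter GLUT1 of the blood-brain barrier, was higher in BYS than in SNS by 0.43 ± 0.13. None of these 5 lists had a called gene in BYP against BNS, in BNS against SNS or in BYP against BYA.

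Pairs of members that can build one channel were weakly related from sample to sample. Over the 20 samples, which share arrays, dyes and groups, Pearson's r was -0.20 for Kcnj8 with Abcc9, -0.28 for Kcnj11 with Abcc8, and -0.17, 0.28 and -0.30 for Kcnj3 with Kcnj6, Kcnj9 and Kcnj5. The highest r between members was 0.79, for Kcnj9 with Kcnj11, which were both lower in Cy5 samples. The genes most like each member over the 20 samples were Vom2r15 for Kcnj3 (r = 0.90), Lcmt1 for Kcnj5 (0.83), Ppfia2 for Kcnj6 (0.89), Car1 for Kcnj9 (0.94), Paip1 for Kcnj8 (0.90), Cd7 for Kcnj11 (0.99), Syne1 for Abcc8 (0.91) and Stam for Abcc9 (0.92). They were picked as the highest among all genes with a value in every sample. No r was adjusted for dye, array or group, and levels of Kcnj9 and Kcnj11 followed the dye.

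The called results depended on the random block used and on how the place on the array was handled. With the slide in place of the array as the random block, Kcnj8 and Abcc9 kept their differences in BYS against BNS. They no longer passed there (adjusted p = 0.156 and 0.135), while Abcc9 in BYA against BYS passed (adjusted p = 0.0235). BYS, BYA and BNS each lay on 1 slide, so this setting cannot show whether a call would outlast a shift between slides. Neighbouring spots in the order of the table shared part of the shift: a running median along that order gave 0.34 of the Abcc9 difference and -0.21 of the Kcnj8 difference between BYS and BNS. With that trend removed, the differences were 0.42 for Abcc9 and -0.42 for Kcnj8 (adjusted p = 0.148 and 0.137), and that of Abcc9 in BYA against BYS was -0.94 (adjusted p = 0.00922). For Kcnj3 the trend ran against the difference, which was 0.71 with the trend removed. Without BNS replicate 4, or without the array of BYS replicates 1 and 2, neither Kcnj8 nor Abcc9 passed in BYS against BNS (adjusted p = 0.0538 and 0.0616 without that sample, 0.116 and 0.0760 without that array).

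**Figure D5:**
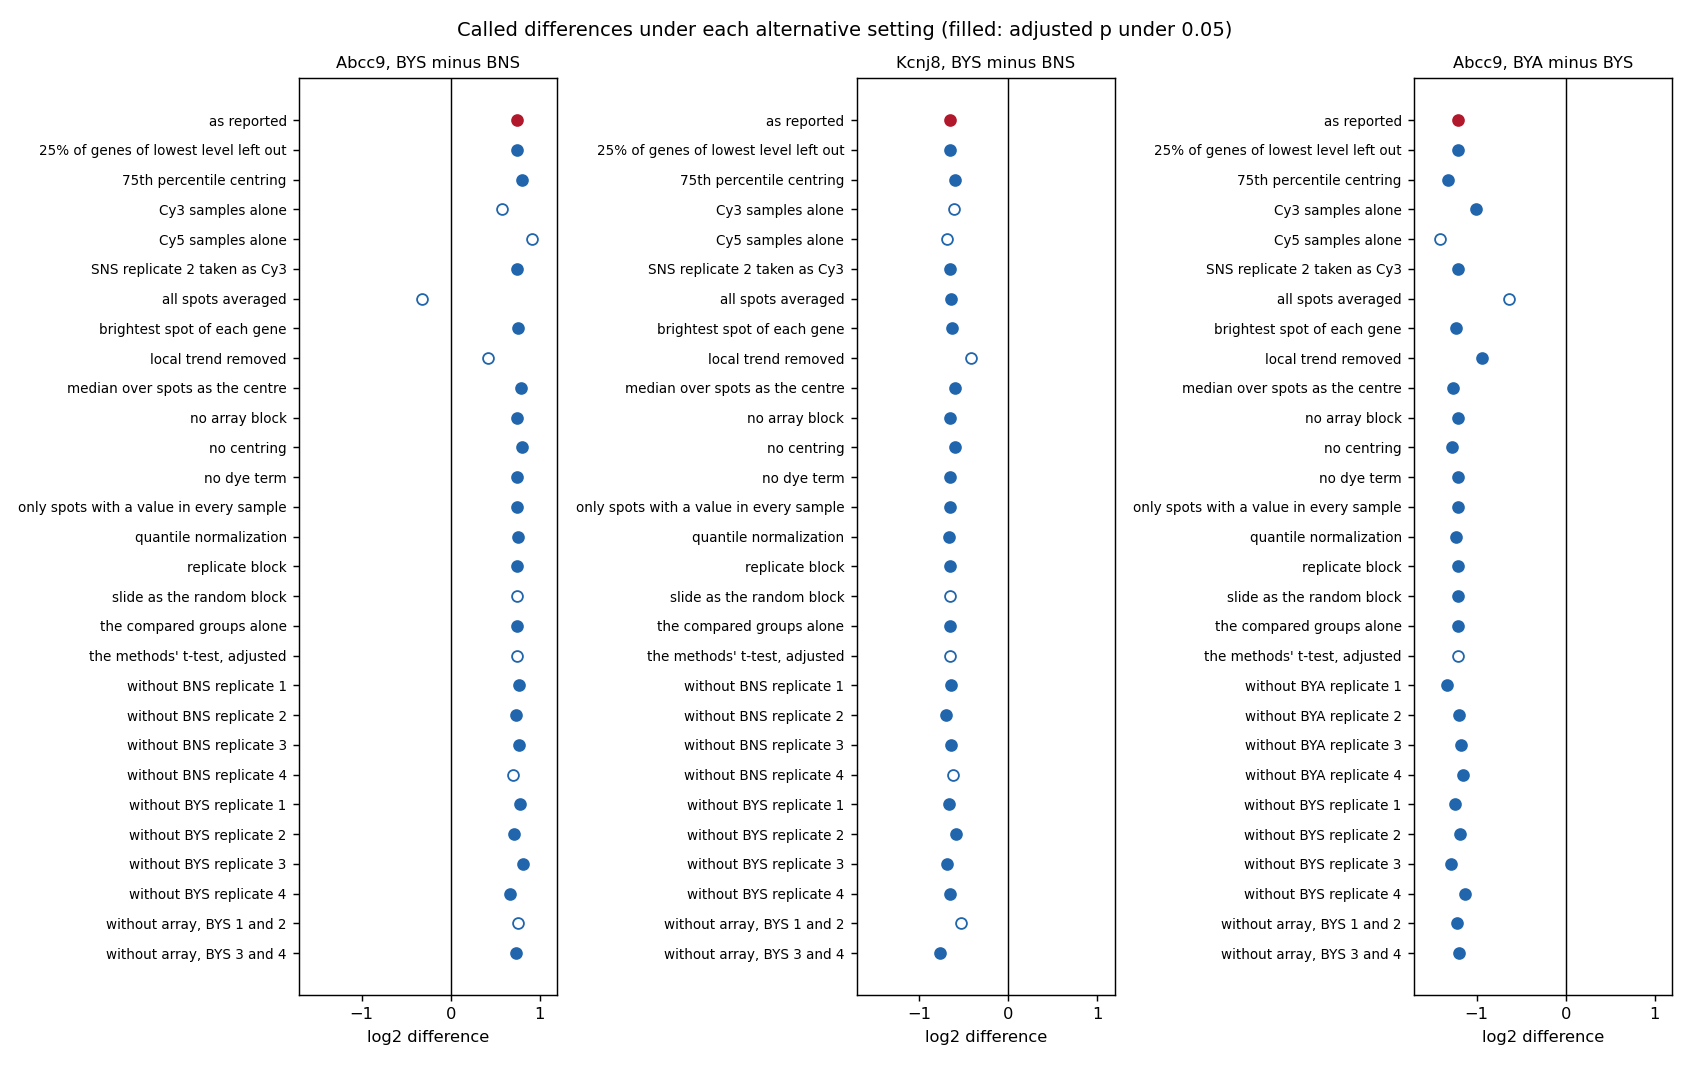
Each point is the log2 difference (horizontal axis) of Abcc9 or Kcnj8 in the comparison above the panel, under the setting named on the vertical axis, and filled points passed at an adjusted p under 0.05. Abcc9 in BYA against BYS lies between -1.41 and -0.64 and does not pass at either end, while Abcc9 in BYS against BNS turns to -0.32 with all spots averaged.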

How the data were processed

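Arcuate nuclei of 20 male rats were profiled on Agilent rat arrays in a 2-colour design. Per the submitters' processing notes, spots were extracted in Agilent Feature Extraction 10.7.3.1. The file deposited by the authors holds 1 intensity value per spot and sample, and how it was background-corrected or normalized is not stated in any source at hand, so that levels are relative. Spots were named through the platform annotation and RefSeq gene names. Values were taken to log2 and centred on each sample's median over genes complete in all samples (medians of the complete spots were 0.663 to 0.728 in intensity units, up to 0.35 apart on the log2 scale). Where a gene had several complete spots their mean was used, and genes without one were read from their most complete spot with at least 3 values per group.

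All 13292 genes were fitted with limma 3.58.1 in R 4.3.3 (groups, dye, and array as a random block with a correlation of 0.436) and adjusted by Benjamini-Hochberg, with calls under 0.05. The script was tested on simulated data. With arrays, precision is limited by how many samples there are. Tables and plots were made with Python 3.11.15, pandas 2.3.3 and matplotlib 3.10.9. The members, the gene lists and the tests were chosen with earlier results of these data known. All 8 members are named, with the called genes of each list and the most alike gene of each member. Alternatives changed the block, dye, centring, normalization, filter, choice of spots, local trend, samples and test. The plan was to average the spots of a gene. The limit to complete spots was set once missing values, mostly in Cy5 samples, had been seen. The average over all spots with a value, which is nearer to the plan's wording, is given as an alternative, and it changes each call of Abcc9. Centring on spots and leaving out a BYS array were also added after seeing the data. The methods' t-test was run on its p-value alone, without the fold limit for each gene.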

Additional observations from a re-analysis of the deposited data

Results flagged for a closer look

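In BYP rats, the level of Kcnj3 in replicate 2 was 1.25, far from the other 3 samples at 0.61 to 0.70. In SNS rats, the level of Abcc8 in replicate 2 was 1.39, far from the other 3 samples at 1.02 to 1.06. This is the sample whose dye label is in doubt. These were 2 of 40 groups of 4 samples compared for such gaps, and chance alone gives about 1 in 20.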

How the results depend on the processing

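Of 1784 differences of single members under the alternatives, 74 that had not passed as reported changed sign. Of those that had passed, 1 turned round: the difference of Abcc9 in BYS against BNS was -0.3244 with all spots averaged, against 0.74 as reported, where the 2 dimmer spots, which lack values in some Cy5 samples, enter the mean. The number of members called moved as follows.

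In BYS against BNS (2 as reported) it was 0 with the slide as the random block, with Cy3 samples alone and by the methods' t-test after adjustment (run without their fold limit). It was 1 with Cy5 samples alone, with the local trend removed, with all spots averaged or when the array of BYS replicates 1 and 2 was left out, but of these only averaging all spots left a gene called as reported (Kcnj8). The 1 was Kcnj11 with Cy5 samples alone and without that array and Kcnj3 with the trend removed. It was 4 with SNS replicate 2 taken as Cy3 and by the methods' t-test unadjusted, 5 with no dye term and with the compared groups alone, and 6 with no array block. Leaving out 1 replicate gave 0 to 3. The 0 was without BNS replicate 4. The share of all genes called, 15.5% as reported, moved as well. It was 30.5% with SNS replicate 2 taken as Cy3, 19.8% by the unadjusted t-test and 23.8% with no dye term. With no array block and with the compared groups alone it was above 30.5%. With the slide block it was 2.26%, and in each setting with 0 or 1 members called it was below 15.5%. The counts are thus not read as results about the members.

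In BYS against SNS (2 as reported) it was 1 with the 75th percentile, the median over spots or no centring, with the brightest spot, with all spots averaged, or when that of BYS replicates 3 and 4 was left out. It was 0 with the slide block, either dye alone, the trend removed, the compared groups alone, the adjusted t-test, or when the array of BYS replicates 1 and 2 was left out. Leaving out 1 replicate gave 0 to 2.

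In BYA against BYS (1 as reported, Abcc9) it was 0 with all spots averaged, Cy5 samples alone and the adjusted t-test, and 2 with no dye term. Leaving out 1 replicate gave 1 to 1. In BYP against BYS (0 as reported) it was 1 with the dimmest 25% of genes left out, with quantile normalization, with each of the 3 other centrings, with complete spots alone, with SNS replicate 2 as Cy3, with no array block and with the compared groups alone, 2 with no dye term and by the unadjusted t-test, and 0 to 1 when 1 replicate was left out. In BYA against BNS (0 as reported) it was 1 with no array block or no dye term and 2 by the unadjusted t-test, all settings that also called a higher share of all genes. In BYP against BNS (0 as reported) it was 1 with no array block, no dye term or the compared groups alone, and 2 by the unadjusted t-test. In BNS against SNS (0 as reported) it was 2 with Cy5 samples alone, no array block and the unadjusted t-test. In BYP against BYA (0 as reported) the unadjusted t-test gave 1. The counts in these comparisons and in BYS against SNS are likewise not read as results about the members.

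With the replicate number as a replicate block, 2 members passed in BYS against BNS, 1 in BYS against SNS and 1 in BYA against BYS. The numbers did not pair the samples: of 40 same-numbered pairs of samples across groups, 6 had deviations that correlated above 0.1 (median r = -0.02). The median difference over all genes between BYS and BNS was 0.18 as reported, 0.23 with no centring and 0.05 with quantile normalization, under which both called members passed. Signal limits the dim genes: Kcnj11, both spots of Kcnj9 and the dimmer spots of Kcnj3, Kcnj5 and Abcc9 read lower in Cy5 than in Cy3 samples.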
